A study of Mus musculus with 6 samples.

Results

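The Z-disc protein genes are 10 genes of the sarcomere's boundary plate: Actn2, Actn3, Ldb3, Pdlim3, Myoz1, Myoz2, Tcap, Csrp3, Myot and Synpo2l. They were picked by name, and every non-control probe whose RefSeq accession belongs to them was taken, which gave 11 probes (Ldb3 has 2, each other gene 1) out of 39429 probes for 32451 gene entries. They were measured in C2C12, an established mouse myoblast line, on 6 Agilent arrays with 1 colour. Some cells received an siRNA that targets Meg3, a long non-coding RNA (siRNA-MEG3, 3 arrays), and the control cells a negative control siRNA (siRNA-NC, 3 arrays). All cells were grown in medium with 10% fetal bovine serum and transfected by lipofection at 70 to 80% density. The labels write the amount of siRNA as 20 um and give no time between the transfection and the harvest. The labels name 1 cell line and no separate clones.

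The Z-disc lies at each end of a sarcomere and holds the actin thin filaments of neighbouring sarcomeres together. Alpha-actinin crosslinks those filaments, PDZ-LIM proteins bind alpha-actinin, and telethonin caps the end of titin that is buried in the disc. Myozenins, muscle LIM protein and myotilin join the same scaffold, and several of these proteins bind signalling enzymes such as calcineurin. Dividing myoblasts have no mature sarcomeres, which form as the cells fuse into myotubes.

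The 3 siRNA-MEG3 arrays and 3 siRNA-NC arrays do not carry 3 independent measurements each. Arrays 1 and 3 of siRNA-MEG3 share their spot-to-spot noise (r = 0.98 over 227 probes printed 10 times), and arrays 1 and 3 of siRNA-NC differ by no more than their spots do (variance ratio 1.04, against 159 for arrays 1 and 2). Arrays 1 and 2 of siRNA-MEG3 were also close, with a ratio of 1.33, but did not share that noise. Each pair of arrays 1 and 3 was averaged, so tests compare 2 samples with 2 samples, and this number limits their precision. The labels call all 6 arrays biological replicates and do not describe the cultures; given the close pairs, p-values measure only the spread between these samples, which may be technical. The siRNA-MEG3 arrays were scanned in 2 sessions and the siRNA-NC arrays in 1 other, so scan session and group cannot be told apart. Each array's processed signal had its 75th percentile at 1168 to 1271 on siRNA-MEG3 arrays and 1220 to 2266 on siRNA-NC arrays. Areas of 30 by 17 spots were called dark blocks if siRNA-NC exceeded them over 4-fold at more than 5% of their positions, and such blocks covered 5.87 to 21.6% of the spots on siRNA-MEG3 arrays. The 3 probes for Meg3 were well above background on 0 siRNA-MEG3 arrays, and 1 of them on 1 siRNA-NC array, so the knockdown could not be checked.

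Of the 10 genes, Pdlim3, Myoz2, Myot and Csrp3 rose in siRNA-MEG3 cells, by 129-fold, at least 18.5-fold, at least 3.76-fold and 8.74-fold. The bounds for Myoz2 and Myot hold for the processed signal only. Under another background correction with the spots under a bright speck left out, described further on, both genes had differences smaller than their bounds. Pdlim3 and Csrp3 also had smaller log2 differences there, 5.70 and 2.27 rather than 7.01 and 3.13. Tcap, Actn3, Ldb3 and Myoz1 had positive differences that did not pass the test, and Synpo2l had about the same signal in both groups. Actn2 was too dim to be tested. The test was limma's moderated test on log2 signal relative to each array's 75th percentile, with Benjamini-Hochberg adjustment over the 22053 genes for which every array of siRNA-MEG3, of siRNA-NC or of both read a probe well above background, and a threshold of 0.05.

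**Figure D1:**
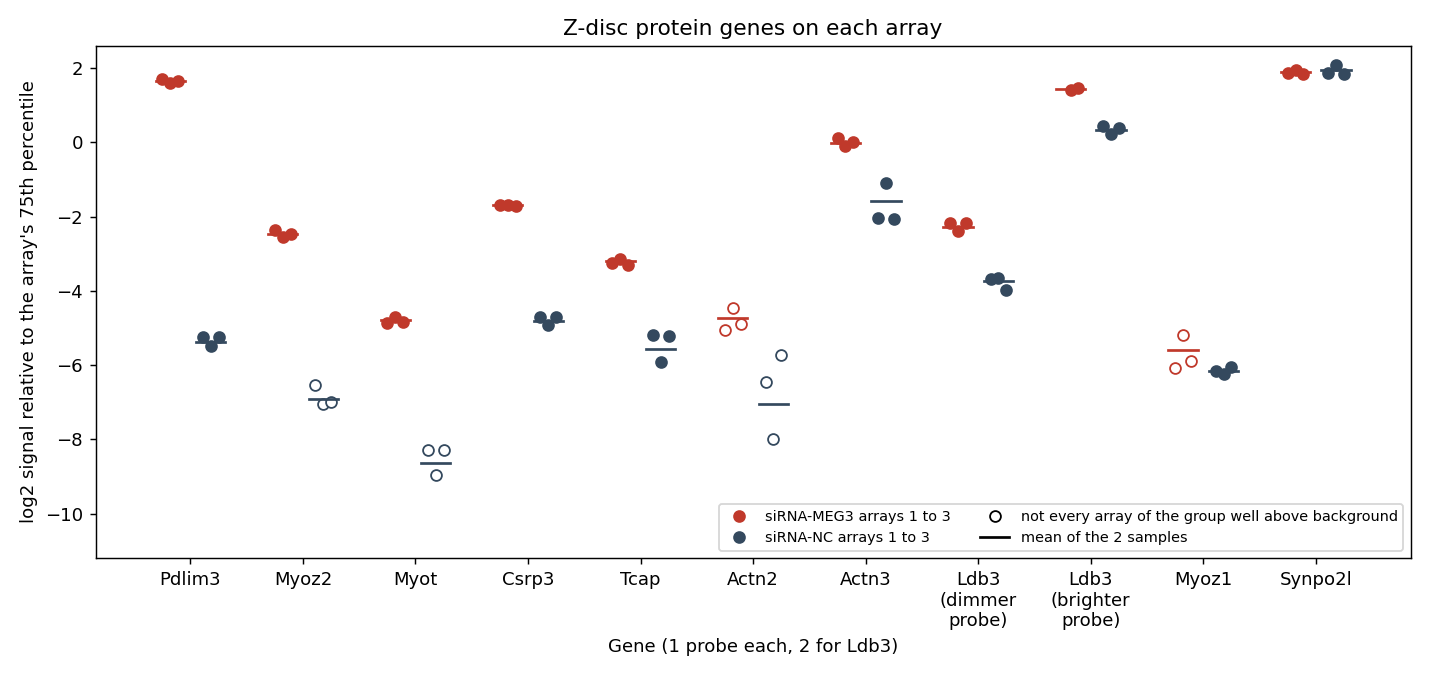
Signal of the 11 Z-disc probes on each array, as log2 of the processed signal relative to the array's 75th percentile, with siRNA-MEG3 arrays (red) left of siRNA-NC arrays (blue). Lines are means of the 2 samples per group and open symbols mark a group in which not every array was well above background; the siRNA-MEG3 and siRNA-NC points overlap for Myoz1 and Synpo2l.

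Myoz2 and Myot entered the test only through their siRNA-MEG3 arrays and so had to differ, which leaves 7 tested genes for a count. Of these 7, Pdlim3 and Csrp3 were higher in siRNA-MEG3 cells and 0 were lower, where 1.1% of all tested genes were higher and 0.417% lower. The shares of all tested genes here include genes that entered only through siRNA-MEG3 or only through siRNA-NC arrays. Myoz1, among the 7, entered only through its siRNA-NC arrays. At an unadjusted p under 0.05 by limma, 5 of the 7 were higher and 0 lower, where 19.5% of all tested genes passed in either direction. For 5 of the 7, all usable siRNA-MEG3 arrays lay above all usable siRNA-NC arrays, as for 29.3% of all tested genes. For 0 of the 7 they lay below, as for 17.9% of all tested genes. Ldb3, among the 5, had no usable value on siRNA-MEG3 array 1. As a description only, the median log2 difference of all 9 genes was 2.35, or 1.91 with Myoz2 and Myot at their lower bounds, against 0.06 over all tested genes. In RNA from whole cultures, more cells that make a transcript and more transcript per cell cannot be told apart.

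The promoters of 4 genes are shown because they span the range of the results, Pdlim3, Myoz2 and Csrp3 among the genes that rose and Synpo2l with the smallest difference. For Csrp3 and Synpo2l, which have 2 windows each, the more upstream window is printed. Each is a RefSeq window of the GRCm38.p6 build, 250 bases before and 50 after an annotated start, written 5′ to 3′ on the gene's strand. Capitals mark E-boxes (CANNTG, which bind myogenic bHLH factors), the MCAT element (CATTCC), MEF2 sites and CArG boxes, searched on both strands. CAGCTG is a form of CANNTG. The windows lie at chr8:45885237-45885536 on the plus strand for Pdlim3, and on the minus strand at chr3:123034938-123035237 for Myoz2, chr7:48848002-48848301 for Csrp3 and chr14:20668305-20668604 for Synpo2l.
Pdlim3: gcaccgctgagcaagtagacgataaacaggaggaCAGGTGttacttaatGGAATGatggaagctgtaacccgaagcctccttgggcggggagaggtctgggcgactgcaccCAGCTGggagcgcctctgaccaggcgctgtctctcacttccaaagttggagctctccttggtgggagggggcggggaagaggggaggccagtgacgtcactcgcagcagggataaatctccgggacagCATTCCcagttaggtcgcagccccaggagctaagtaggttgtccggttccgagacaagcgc
Myoz2: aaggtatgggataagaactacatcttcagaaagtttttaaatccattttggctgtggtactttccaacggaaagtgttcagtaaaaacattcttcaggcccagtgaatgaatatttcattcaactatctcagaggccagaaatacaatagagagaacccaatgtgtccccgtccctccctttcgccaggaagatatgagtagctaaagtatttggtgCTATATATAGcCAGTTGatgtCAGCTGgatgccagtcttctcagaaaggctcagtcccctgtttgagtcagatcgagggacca
Csrp3: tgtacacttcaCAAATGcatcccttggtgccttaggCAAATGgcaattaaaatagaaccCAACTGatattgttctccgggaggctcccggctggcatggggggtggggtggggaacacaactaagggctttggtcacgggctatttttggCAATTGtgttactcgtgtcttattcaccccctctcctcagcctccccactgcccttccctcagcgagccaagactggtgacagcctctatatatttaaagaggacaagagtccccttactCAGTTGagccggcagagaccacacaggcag
Synpo2l: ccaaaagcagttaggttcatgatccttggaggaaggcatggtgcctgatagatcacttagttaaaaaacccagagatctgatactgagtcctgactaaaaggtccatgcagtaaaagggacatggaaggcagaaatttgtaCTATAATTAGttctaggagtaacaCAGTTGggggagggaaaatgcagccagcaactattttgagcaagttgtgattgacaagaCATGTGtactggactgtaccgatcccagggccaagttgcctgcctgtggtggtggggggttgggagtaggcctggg
The Pdlim3 window holds 2 E-boxes, 1 of them CAGCTG, and 2 MCAT matches. The Myoz2 window holds a MEF2 match from -33 to -24, followed by E-boxes at -22 and -12 from the start site. The Csrp3 window holds 5 E-boxes, and the Synpo2l window, of the gene that did not differ beyond its spread, holds 2 E-boxes and 1 MEF2 match. The windows not printed hold 4 E-boxes for Csrp3, and 4 E-boxes, 2 of them CAGCTG, with 1 MEF2 match for Synpo2l. Over 32851 mouse promoters of this length, 72.3% hold CANNTG, 16.3% CAGCTG, 14.7% CATTCC, 3.19% a MEF2 match and 1.63% a CArG box. Of the 9 windows used, for 6 of the 10 genes, 7 hold CANNTG, 3 CAGCTG and 1 CATTCC. A MEF2 match is in 3 and a CArG box in 2, both of Ldb3. These 2 Ldb3 windows overlap and hold the same CArG site, so it is 1 site counted in 2 windows. Windows on 1 chromosome were left out of the 9 but were not taken out of the 32851 promoters. A gene without a window here may therefore still have one. Among the genes that rose, Myot has no window here. A match describes the letters in the window only.

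The alpha-actinins crosslink actin at the Z-disc. Actn3, the form of fast fibres, had 108, 93.6 and 101% of the 75th percentile on siRNA-MEG3 arrays 1 to 3, against 24.3, 47.1 and 23.8% on siRNA-NC arrays 1 to 3. All siRNA-MEG3 arrays lay above all siRNA-NC arrays, and siRNA-NC array 2 lay 0.97 log2 units above the mean of the other two. The log2 difference was 1.55 ± 0.39 (SE, n = 2 samples each), with a limma adjusted p of 0.159. Actn2, the form of cardiac and all skeletal fibres, had 3.02, 4.52 and 3.34% on siRNA-MEG3 arrays and 1.14, 0.391 and 1.89% on siRNA-NC arrays. It was well above background on 2 siRNA-MEG3 arrays and 1 siRNA-NC array, so it has no test.

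The PDZ-LIM proteins bind alpha-actinin through their PDZ domain. Pdlim3, also called ALP, had 328, 304 and 316% of the 75th percentile on siRNA-MEG3 arrays, against 2.65, 2.21 and 2.66% on siRNA-NC arrays. The groups were far apart and each was tight, with every array well above background. The log2 difference was 7.01 ± 0.22 (SE, n = 2 each; 95% interval 6.41 to 7.61; limma adjusted p = 0.0185), the 6th highest of all genes tested. Its spot lay in a dark block on siRNA-MEG3 arrays 1 and 3, and array 2, where it did not, gave nearly the same value. With normexp and no speck spots the log2 difference was 5.70 (adjusted p = 0.00317).

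Ldb3, known as Cypher or ZASP, was read by 2 probes, each annotated to its own RefSeq transcript. The brighter probe had 268 and 277% of the 75th percentile on siRNA-MEG3 arrays 2 and 3, with array 1 left out as an outlier spot, against 135, 117 and 131% on siRNA-NC arrays. Its log2 difference was 1.13 ± 0.21 (SE, n = 2 each; limma adjusted p = 0.111). The dimmer probe had 22.4, 19.1 and 22.0% on siRNA-MEG3 arrays and 7.80, 7.94 and 6.33% on siRNA-NC arrays, a log2 difference of 1.46 ± 0.22 (adjusted p = 0.0817 in the limma fit of every probe). Both probes were higher on every usable siRNA-MEG3 array than on any siRNA-NC array, and neither passed the test.

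Myozenins link alpha-actinin to calcineurin. Myoz2, the form of slow and cardiac muscle, had 19.4, 17.2 and 18.0% of the 75th percentile on siRNA-MEG3 arrays, against 1.09, 0.760 and 0.781% on siRNA-NC arrays. No siRNA-NC array was well above background, so Myoz2 was at least 18.5-fold higher in siRNA-MEG3 cells (fitted log2 difference 4.42, limma adjusted p = 0.0185, n = 2 each). Such a bound sets the siRNA-MEG3 mean over all its replicates against a raised siRNA-NC mean. For that mean, each siRNA-NC array gave the higher of the gene's own signal and the array's lowest signal well above background. The bound holds for the processed signal only, and a spot can read above that lowest signal without being well above background. After normexp background correction, the fitted log2 difference of Myoz2 was 3.06 (adjusted p = 0.544), or 2.31 (adjusted p = 0.0239) with the spots under a bright speck on siRNA-MEG3 array 2 left out, both below the bound. Myoz1, the form of fast muscle, had 1.48, 2.72 and 1.70% on siRNA-MEG3 arrays and 1.41, 1.33 and 1.52% on siRNA-NC arrays. These values overlap, and the log2 difference was 0.58 (95% interval -0.34 to 1.49; limma adjusted p = 0.445, n = 2 each). Myoz1 was well above background on 1 siRNA-MEG3 array and 3 siRNA-NC arrays. The myozenins therefore gave a large difference for Myoz2 and none beyond the spread for Myoz1, but the difference between them was not tested.

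Csrp3, or muscle LIM protein, an actin- and alpha-actinin-binding regulator of muscle differentiation, had 31.4, 30.9 and 30.6% of the 75th percentile on siRNA-MEG3 arrays, against 3.80, 3.30 and 3.80% on siRNA-NC arrays. The arrays of a group nearly coincided, and the log2 difference was 3.13 ± 0.21 (SE, n = 2 each; 95% interval 2.55 to 3.70; limma adjusted p = 0.0222). The Csrp3 spot lay in a dark block on siRNA-MEG3 arrays 1 and 3 but not on array 2, which had nearly the same value. Myot, myotilin, which bundles actin and binds filamin C, had 3.46, 3.83 and 3.48% on siRNA-MEG3 arrays and 0.322, 0.199 and 0.322% on siRNA-NC arrays. No siRNA-NC array was well above background, so Myot was at least 3.76-fold higher in siRNA-MEG3 cells (fitted log2 difference 3.85, limma adjusted p = 0.0278, n = 2 each). The Myot spot lay in a dark block on siRNA-MEG3 array 2. With normexp and the speck spots left out, Csrp3 had 2.27 (adjusted p = 0.0211) and Myot 1.21 (adjusted p = 0.152), below its bound.

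Tcap, telethonin, had 10.5, 11.3 and 10.2% of the 75th percentile on siRNA-MEG3 arrays, against 2.74, 1.66 and 2.70% on siRNA-NC arrays. The groups did not overlap, but siRNA-NC array 2 lay 0.71 log2 units below the mean of the other two, and the log2 difference of 2.35 ± 0.32 (SE, n = 2 each; 95% interval 1.49 to 3.21) missed the threshold with a limma adjusted p of 0.0626. Synpo2l, an actin-binding Z-disc protein of the synaptopodin family also called CHAP, had 369, 383 and 362% on siRNA-MEG3 arrays and 364, 423 and 356% on siRNA-NC arrays. Its groups overlapped, with a log2 difference of -0.06 (95% interval -0.65 to 0.53; limma adjusted p = 0.921, n = 2 each). In the mouse gene order Synpo2l and Myoz1 are direct neighbours among protein-coding genes, and neither passed the test.

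**Figure D2:**
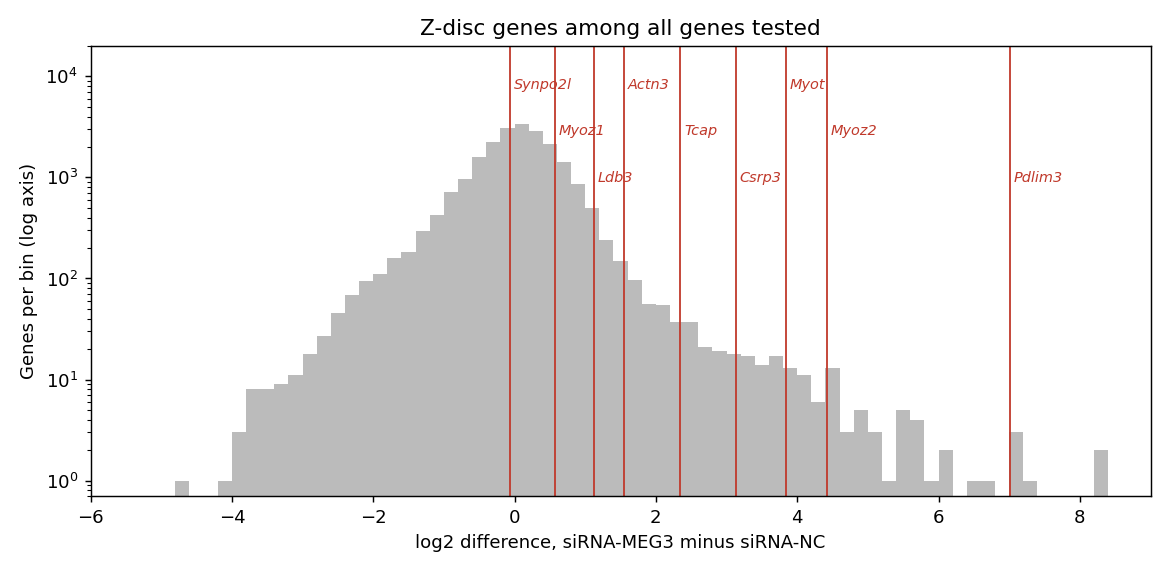
Histogram of the fitted log2 difference, siRNA-MEG3 minus siRNA-NC, over the 22053 tested genes (grey, genes per bin on a log axis), with a red line for each of the 9 tested Z-disc genes. Pdlim3 stands 6th from the top and Synpo2l lies close to the median of all genes, 0.06.

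Taking the 3 siRNA-MEG3 arrays as 1 sample, which is then assumed to vary like siRNA-NC, 6 Z-disc genes were higher, Tcap (limma adjusted p = 0.000397) and Actn3 (adjusted p = 0.0428) besides the 4 above. Without siRNA-NC array 2, which leaves the siRNA-NC group a lone sample assumed to vary like the other group, 0 Z-disc genes and 0 genes of the array passed the limma test (6927 at an unadjusted p under 0.05), and the 4 genes that rose each had an adjusted p of 0.130. Their log2 differences stayed between 3.50 for Myot and 7.05 for Pdlim3 over all fits that left out 1 array, apart from Csrp3 at 3.02 to 3.14. Among these 4 genes, Myoz2 and Myot entered only through their siRNA-MEG3 arrays, so their calls are no added support.

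**Figure D3:**
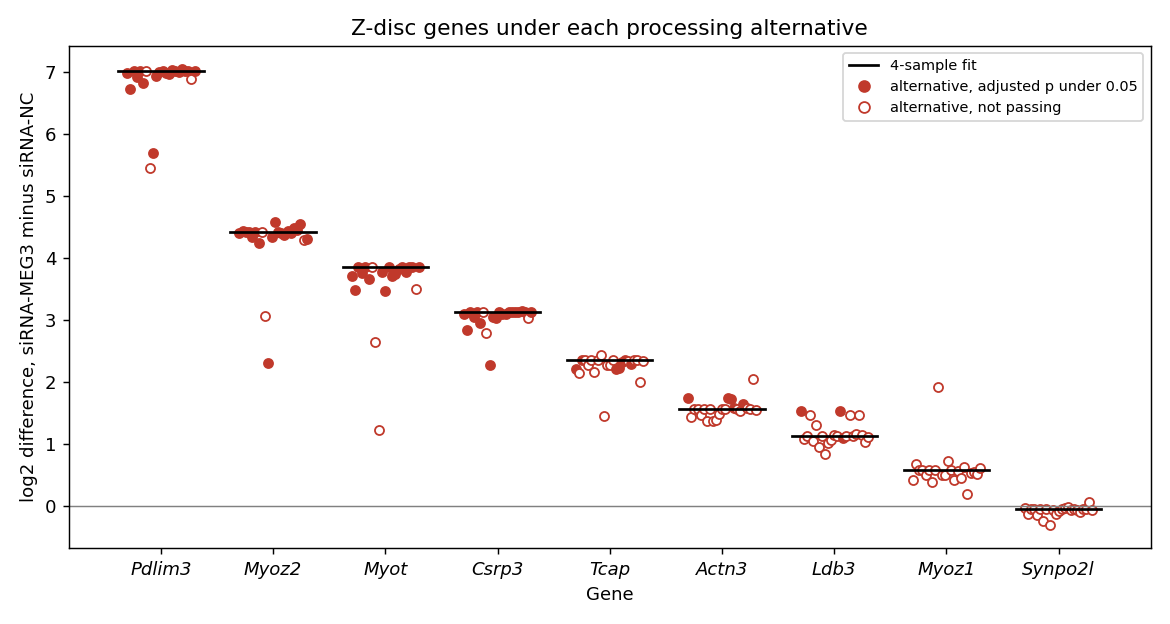
Log2 difference, siRNA-MEG3 minus siRNA-NC, of the tested Z-disc genes in the 4-sample fit (lines) and under each alternative (circles), with filled circles where the limma adjusted p was under 0.05. Pdlim3 stays between 5.46 and 7.05 and Synpo2l between -0.32 and 0.06.

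Close relatives not restricted to striated muscle were set beside them. Of 11 such genes, all tested, 0 were higher and 0 lower by limma, with a median log2 difference of 0.31. At an unadjusted p under 0.05 by limma, 2 were higher and 0 lower, where 19.5% of all tested genes passed in either direction. With 6 samples, 5 samples or a replicate block over 6 arrays, 2 passed, Pdlim1 and Pdlim5, where 27.1, 9.25 and 14.6% of all tested genes passed. Pdlim5, a PDZ-LIM protein of heart and other tissues, had 1.55 (adjusted p = 0.107) by its brightest usable probe. A brighter probe of Pdlim5, in use with outlier spots kept, in the authors' deposited table or with siRNA-MEG3 as 1 sample, gave 0.225, 0.240 and 0.420. Pdlim1 had 0.96 (adjusted p = 0.139). The non-muscle alpha-actinins Actn1 and Actn4 had log2 differences of 0.40 and 0.31, with Actn4 at -0.111 after normexp background correction. Actn1 stood at 46.8, 47.1 and 45.5% of the 75th percentile on siRNA-MEG3 arrays, against 15.7, 77.2 and 16.8% on siRNA-NC arrays, so array 2 of siRNA-NC lay above all the rest. Synpo2, which relates to Synpo2l and is the neighbour of Myoz2 in the gene order, had -0.36 by its brightest probe, and 0.56 and 0.84 by the others.

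**Figure D4:**
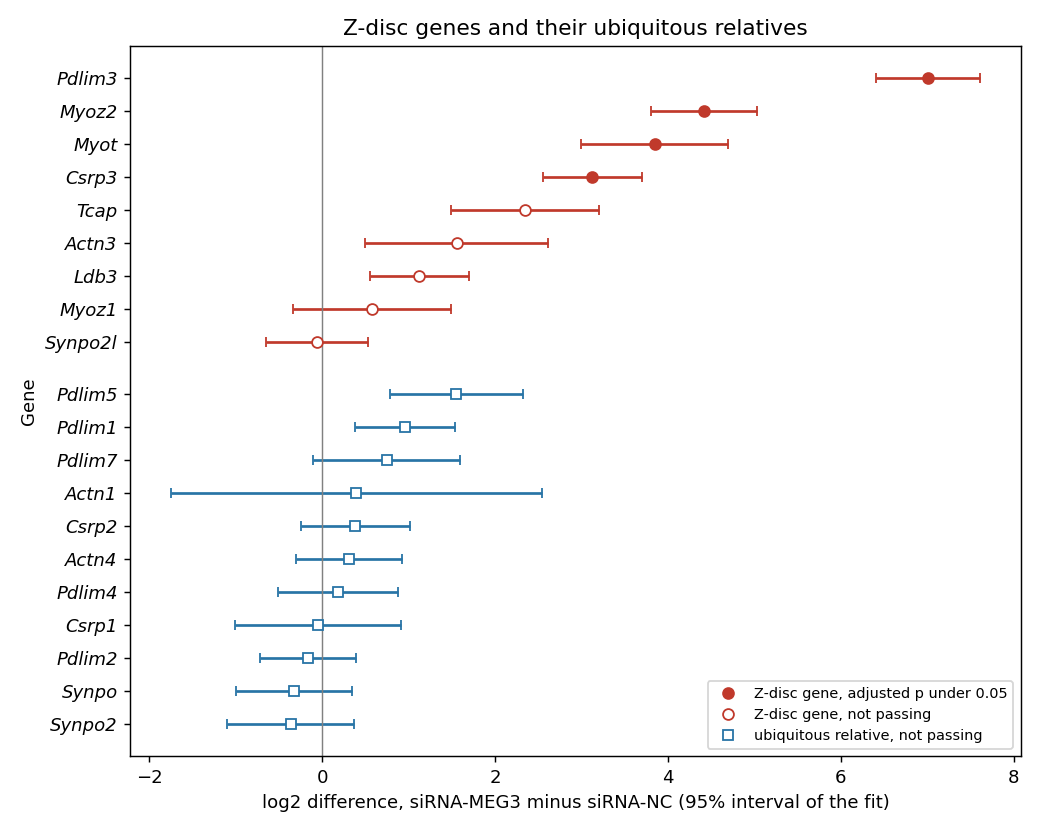
Fitted log2 difference, siRNA-MEG3 minus siRNA-NC, of the 9 tested Z-disc genes (red circles, filled where the limma adjusted p was under 0.05) and 11 relatives (blue squares), with 95% intervals of the fit. The Z-disc genes run from -0.06 for Synpo2l to 7.01 for Pdlim3 and the relatives from -0.36 for Synpo2 to 1.55 for Pdlim5; the Myoz2 and Myot values are fits against siRNA-NC arrays not well above background.

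Of 33 other genes of the Z-disc and its anchoring filaments, 28 were tested, with a median log2 difference of 0.46. By limma 5 were higher and 0 lower, where 1.1% of all tested genes were higher and 0.417% lower. At an unadjusted p under 0.05 by limma, 9 were higher and 0 lower, where 19.5% of all tested genes passed in either direction. Lmod2 and Xirp2 entered only through their siRNA-MEG3 arrays, which favours a higher reading there, so their calls are no added support. Xirp2 was well above background on 2 siRNA-NC arrays. Of the 26 others, 3 were higher and 0 lower by limma, and 7 were higher at an unadjusted p under 0.05. The leiomodins nucleate actin filaments and cap their pointed ends. Lmod3 rose by a log2 difference of 4.03 (adjusted p = 0.0255), and Lmod2, not well above background on any siRNA-NC array, was at least 3.79-fold higher (adjusted p = 0.0203). Ttn, the giant protein whose end lies in the Z-disc, rose by 4.51 (adjusted p = 0.0265), and its other probe gave 5.16. Neb, nebulin, which runs along the thin filament, had 4.44 by its brightest probe (adjusted p = 0.0222) but -0.26 by its other tested probe. Lmod2 had a fitted log2 difference of 1.24 (adjusted p = 0.132) with normexp and no speck spots, below its bound. Xirp2, an actin-binding Xin repeat protein, had 1.85 (adjusted p = 0.0457), close to the threshold. The Xirp2 call was lost with the replicate block of 4 samples (adjusted p = 0.0937), quantile normalization (0.0522), the authors' deposited table (0.0564), outlier spots kept (0.0501), without siRNA-NC array 1 (0.0749) or array 3 (0.0545), and with normexp and no speck spots (log2 difference 0.95, adjusted p = 0.197). Ankrd1, a stress-induced partner of titin, had 1.32 (adjusted p = 0.0878).

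Calcineurin binds the myozenins, and 8 of 9 listed genes of calcineurin and its NFAT targets were tested. By limma 0 were higher and 0 lower, with a median of -0.17. At an unadjusted p under 0.05 by limma, 2 were higher and 0 lower, where 19.5% of all tested genes passed in either direction. The NFAT factor genes Nfatc2 and Nfatc1 had log2 differences of 1.91 (adjusted p = 0.0901) and 0.73 (adjusted p = 0.193), and Rcan1, which encodes a calcineurin inhibitor, had -0.43 (adjusted p = 0.446), or 0.252 after normexp correction. Nfatc2 entered the test only through its siRNA-MEG3 arrays, so passing is no added support. Nfatc2 passed with 6 samples (adjusted p = 0.00538), 5 samples (0.0331), siRNA-MEG3 as 1 sample (0.00428), the 6-array block (0.0171) and without siRNA-MEG3 array 2 (0.000794), and had 0.78 (adjusted p = 0.310) with normexp and no speck spots. Nfatc1 passed with 6 samples (0.00648), 5 samples (0.0493) and the 6-array block (0.0448), where 27.1, 9.25 and 14.6% of all tested genes passed.

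Of 6 markers of myotubes, 4 rose in the limma fit, where 1.1% of all tested genes were higher. Myog, Myh3 and Tnnt3 had log2 differences of 3.46, 7.05 and 3.99 (adjusted p = 0.0222, 0.0255 and 0.0185). Mymk had 2.92 (adjusted p = 0.0498), close to the threshold. Acta1 and Ckm had 0.72 (adjusted p = 0.193) and 1.77 (adjusted p = 0.0655). The summed signal of the 6 was 2783 to 2980% of the 75th percentile on siRNA-MEG3 arrays and 678 to 842% on siRNA-NC arrays. Acta1 alone had 611 to 774% on siRNA-NC arrays. Of 7 myoblast markers, 0 were called in either direction (2 higher and 1 lower at an unadjusted p under 0.05), with sums of 4415 to 4638% on siRNA-MEG3 arrays and 3152 to 4023% on siRNA-NC arrays. Singled out after their values were seen, the myogenic factor genes Myf5 and Myod1 had log2 differences of -2.87 (adjusted p = 0.0701) and 2.29 (adjusted p = 0.110). Cdh15 had 1.41 (adjusted p = 0.0913), and Pax7, Des, Vcam1 and Ncam1 had -0.29, -0.22, 0.31 and 0.29. Of all tested genes, 27.1% passed with 6 samples, 9.25% with 5 samples and 14.6% with the 6-array block. Myf5 passed with 6 samples (0.00212), 5 samples (0.0159), siRNA-MEG3 as 1 sample (3.31e-06), the 6-array block (0.0171), without siRNA-MEG3 array 2 (2.86e-06) and with probes well above background on all arrays (0.0430). Myod1 passed with 6 samples (0.00452), 5 samples (0.0282), siRNA-MEG3 as 1 sample (0.000482), the 6-array block (0.0269), without siRNA-MEG3 array 2 (0.000267) and with normexp and no speck spots (0.0408). Of 4 tested cardiomyocyte markers, 0 were called (1 higher and 0 lower at an unadjusted p under 0.05), and their sums were 39.2 to 39.8% on siRNA-MEG3 arrays and 23.3 to 28.2% on siRNA-NC arrays. Of the smooth muscle markers, 3 of 4 were tested and 0 called (1 higher and 0 lower at an unadjusted p under 0.05), and Myh11 was not well above background on any array. Markers of fibroblasts (5 tested), adipocytes (3), macrophages (3) and endothelium (2), and 7 reference genes, gave 0 calls, with 1 macrophage marker higher and 1 adipocyte marker lower at an unadjusted p under 0.05. The part of the myotube markers' shift in the Z-disc results was not tested.

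The 5 genes whose 6 array values, centred on the siRNA-NC arrays, lay nearest to the median of the tested Z-disc genes by Euclidean distance were Filip1, Serpinb9c, Ear10, Nap1l2 and Myh7. Their distances were 0.376 to 0.418 and their log2 differences 2.31 to 2.44. Ear10 and Serpinb9c belong to families of close copies, so their probes may read relatives too.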

How the data were processed

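Per the file headers, the authors scanned 6 arrays and deposited each array's intensity from Agilent Feature Extraction 11.0.1.1, background-corrected, with flags per spot. Per the labels' protocols, probes with intensities of at least 30 in all samples set the authors' normalization factor. The deposited table of log2 values held 30732 probes with each array's median at 8.11, and correlated at 0.9991 to 0.9997 with the log2 processed signal; its exact steps are not given in the sources used here.

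Here, log2 processed signal minus each array's 75th percentile was used. Control and outlier spots were left out, spots of a probe averaged, and a probe kept where every array of a group, or of both, read it well above background. The brightest kept probe stood for a gene, and 12195 probes had no symbol here. limma 3.58.1 (R 4.3.3) tested 2 samples against 2 with 2 residual degrees of freedom, and was tested on simulated data.

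The members, the gene lists and the tests were chosen with earlier results of these data known. Genes named in the text are the 10 members, the relatives, the 6 other Z-disc genes and 3 calcineurin genes of smallest p, and the 5 nearest patterns. Some cell type markers are named as well. Same-numbered samples did not deviate together (r = -0.04 to -0.03). The siRNA-MEG3 arrays differed little from each other (variance ratios 1.33 to 2.10), so this cannot settle whether the numbers pair the samples. Alternatives covered sample averaging, background, scaling, filters, probes and each array left out.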

Additional observations from a re-analysis of the deposited data

How the results depend on the processing

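Of 23 alternatives, the log2 differences of Pdlim3, Myoz2, Csrp3, Myot, Tcap, Actn3, Ldb3 and Myoz1 were positive in each that could test them. Pdlim3, Myoz2 and Csrp3 passed in 19 of 22 and Myot in 17 of 21 (Myot had 1.21, adjusted p = 0.152, with normexp background correction and the spots under a bright speck on siRNA-MEG3 array 2 left out). The count of Z-disc genes higher, 4, became 7 with 6 or 5 samples or with a replicate block over 6 arrays. It was 2 with dark blocks left out (6 genes tested), where Pdlim3, Csrp3 and Myot had no test. With normexp (1022 genes at an unadjusted p under 0.05) or no filter on dim probes (4431) it was 0. The 4 include Myoz2 and Myot, which entered only through their siRNA-MEG3 arrays, so their calls are no added support. The median of 2.35 was 2.16 with median scaling, 2.14 in the authors' deposited table, 1.95 with probes above background on all arrays, 1.38 with normexp without the speck spots and 1.34 without dark blocks. Leaving out 1 array gave 0 to 6 genes higher and medians of 2.04 to 2.36. Over the array, 243 genes were higher and 92 lower; the counts were 3767 and 2169 with 6 samples, 1207 and 830 with 5, 538 and 702 with siRNA-MEG3 as 1 sample, and 0 and 0 with normexp or no filter. Leaving out 1 array gave 0 to 1349 higher and 0 to 1608 lower. With a replicate block they were 138 and 28 (4 samples) or 1984 and 1213 (6 arrays); the 4-sample block kept the 4 Z-disc genes called (adjusted p = 0.0295 to 0.0414). Median scaling gave 149 lower and 60.2% of calls higher, against 72.5%, and put the all-gene median at -0.13 rather than 0.06 (0.57 with normexp, 0.18 without its speck spots). Signs turned for Synpo (0.0202), Csrp2 (-0.0216), Actn4 (-0.111), Rcan1 (0.252) and Pdlim4 (-0.266) with normexp, Pdlim4 (-0.00514) with median scaling, and Csrp1 with quantile normalization (0.0562) and the deposited table (0.0555). Other probe choices turned Synpo (0.00727 and 0.340), Synpo2 (0.347 and 0.839) and Neb (-0.257). Leaving out 1 array in turn, Csrp1 ranged from -0.465 to 0.0363 (positive without siRNA-MEG3 replicate 2), and Synpo2l from -0.0950 to 0.0557 and Pdlim4 from -0.0497 to 0.229, both turned without siRNA-NC replicate 2. The cause was not tested.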
